A study of Homo sapiens with 6 samples.

Results

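The 121 genes described here share a place on human chromosome 13. They are the genes of the deposited tables whose exons all lie in the window chr13:20200000-40400000 of the genome build hg19, with 1 gene left out, and they make up 121 of 23228 genes. The window is 20.2 Mb long, and it was chosen by the read counts themselves, scaled to library size, which were lower there in PELP1-KD than in control. The values of that same contrast are therefore given as a description, with no test of any gene of the window. The other 276 genes with all exons on chromosome 13 were set beside them.

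Human chromosome 13 carries its protein-coding genes on its long arm, from near the centromere to the end of that arm. Neighbouring genes usually have unrelated functions. Genes that lie side by side share the number of copies of their DNA and, in places, the state of the chromatin, which is the packing of DNA on histones. The window holds housekeeping genes of transcription, translation, protein folding and the cell cycle as well as the ParaHox genes, a small cluster of homeobox transcription factors that pattern the gut.

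RNA-seq was performed in Hep3B, a human hepatocellular carcinoma (HCC) cell line, to ask which transcripts differ when PELP1, a coregulator of nuclear receptors that also acts in ribosome assembly, is knocked down. The 3 control libraries came from cells given lentiviral particles with a non-targeting shRNA, and the 3 PELP1-KD libraries from cells given lentiviral shRNA against PELP1. By the protocol, PELP1-KD cells were selected with puromycin and stable clones were pooled, and 2 PELP1 shRNAs were used, whereas the sample labels do not say which of these each library carries. All cells were grown in RPMI medium, and nothing says that the libraries of a group came from separately transduced cultures, so that their spread may be technical.

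PELP1 itself was the first check of the labels. It had 4893, 4914 and 5102 normalized reads in control and 4421, 4825 and 4840 in PELP1-KD. Normalized reads are reads on a gene divided by the library's size after edgeR's TMM scaling. Each PELP1-KD library was below each control library, but the log2 fold change (log2FC, PELP1-KD over control) was only −0.08 with a standard error (SE) of 0.04, and its adjusted p was 0.101 by edgeR's quasi-likelihood test with Benjamini-Hochberg adjustment. In a fit that took the replicate number as a block, the same log2FC of −0.08 had an adjusted p of 0.0106, and without PELP1-KD replicate 3 it was −0.10 with an adjusted p of 0.0180, each in edgeR. Since the RNA level of the targeted gene was that close to control, directions below are those of the libraries as labelled. All 6 hepatocyte markers had reads, from 66.5 to 4891 RPKM (reads scaled to exon length and library size) as group means. In PELP1-KD, ALB was at 65.4% of control, TTR at 65.6%, SERPINA1 at 72.6%, APOB at 72.9% and TF at 79.6%, while AFP was at 154%. Of the leukocyte markers, PTPRC had at most 5 reads and CD3E at most 2 in any library, while LYZ reached 4751 reads and was at 34.2% of control in PELP1-KD. Of the endothelial markers, CDH5 had 0 reads and VWF at most 3, while PECAM1 had 52 to 74 reads. Of the fibroblast markers, DCN had at most 4 reads, while LUM reached 656 reads (189% of control) and PDGFRB 163 (22.7% of control). The part of these markers in the results was not tested. Libraries held 32945761 to 34456393 reads on genes in control and 26758180 to 31535747 in PELP1-KD, and of 14537 genes with enough reads to test, 26.8% were called lower and 26.8% higher in PELP1-KD (adjusted p below 0.05 in edgeR).

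Of the 121 genes, 71 passed edgeR's filter on low counts. Another 26 had 0 reads in every library, and 24 had at most 15 reads in any library. Over the 71 tested genes the median log2FC was −0.54 with quartiles of −0.91 and 0.02, a median level of 68.8% of control, against a median log2FC of 0.00 over all tested genes. Among the 71, 39 genes (54.9%) were called lower, where 26.8% of all tested genes were, and 6 were called higher, where 26.8% of all tested genes were. In 40 of the 71 every PELP1-KD library lay below every control library, which 29.3% of all tested genes also did. These counts restate the choice of the window. In RNA from bulk cells, fewer cells that carry a transcript and less of it per cell cannot be told apart.

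The lower genes did not fill the window. When the 71 genes were put in order of position and divided at 2 places so that each gene lay as near as possible to the median of its own stretch, the middle stretch held the tested genes after EFHA1, which ends at position 22178355, and before STARD13, which starts at position 33677272. The same genes bounded it when only the 60 members with mean normalized reads of 100 or more were used. The stretch was found from the values, and the differences between stretches are therefore given with no test. From the first to the last of them there were 68 genes, 40 of them tested, with a median log2FC of −0.86 (quartiles −0.98 and −0.62), or 54.9% of control. The 17 tested genes on the side of the centromere, the proximal stretch, had a median of −0.02 and the 14 tested genes on the far side, the distal stretch, a median of −0.04, which are 99.0% and 97.5% of control. Of the middle genes 32 (80%) were called lower and 3 higher. Of the proximal genes 3 (17.6%) were called lower and 1 higher, and of the distal genes 4 (28.6%) lower and 2 higher. Over all tested genes 26.8% were called lower and 26.8% higher. So the name of a lowered segment describes the middle of the window and not its outer parts.

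**Figure D1:**
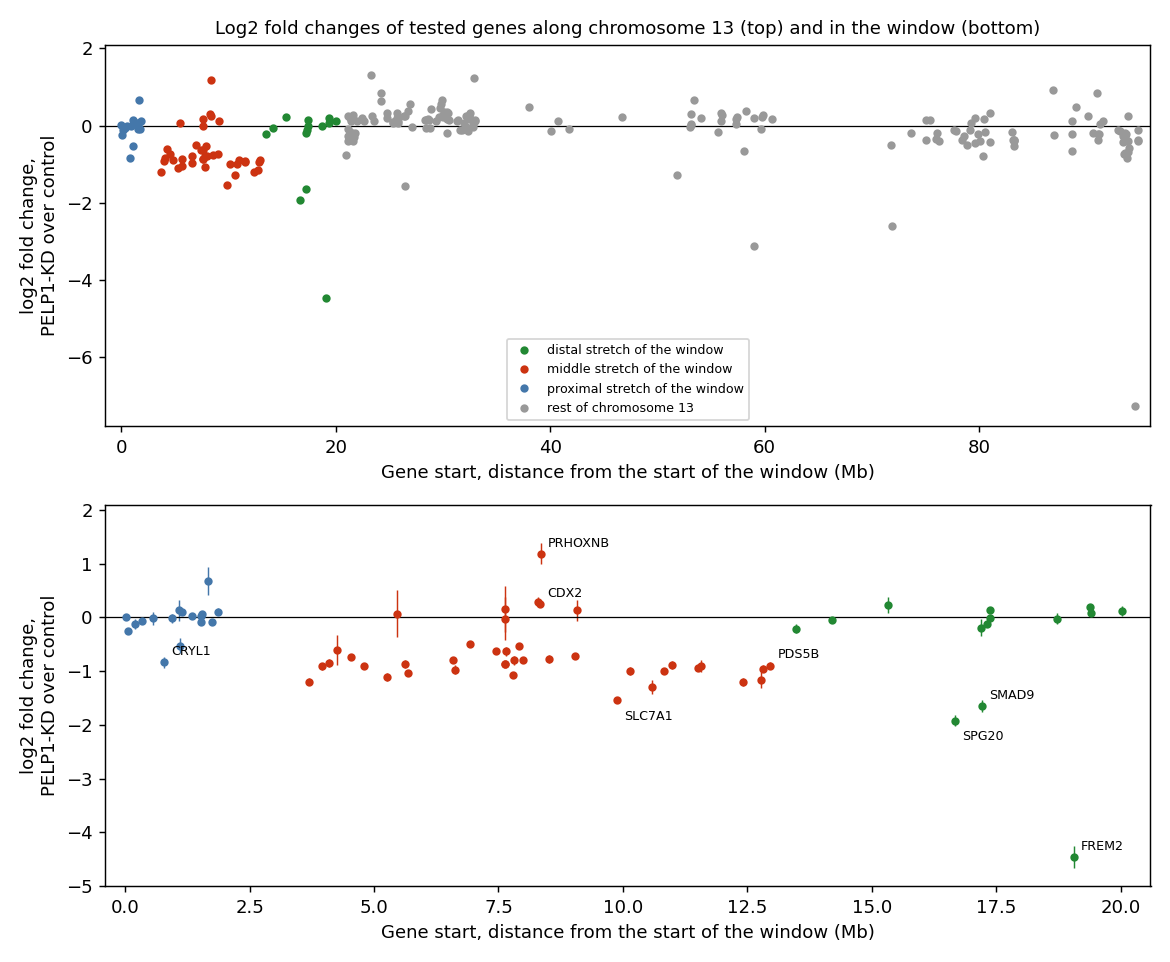
Log2 fold change (PELP1-KD over control) of each tested gene against the distance of its start from the window's start in Mb, for chromosome 13 (top) and for the window (bottom, bars are the SE). In the window, 32 of 40 tested genes of the middle stretch (red) were called lower, beside 26.8% of all tested genes. The median was −0.86 there, while the proximal (blue) and distal (green) stretches had medians of −0.02 and −0.04.

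The change of level was seen on both sides of the middle stretch. EFHA1, which encodes the mitochondrial calcium uptake regulator MICU2, was the last tested gene before the middle stretch, with 950, 920 and 814 normalized reads in control and 986, 973 and 937 in PELP1-KD. TNFRSF19, a receptor of the tumor necrosis factor family, lay in the middle stretch near this end, with 990, 1062 and 1061 in control against 549, 529 and 577 in PELP1-KD. The EFHA1 libraries overlapped between groups, at 108% of control, but each PELP1-KD library was above the control library of the same number. EFHA1 was called higher only with the block, which takes the numbers as pairs (log2FC 0.11 in both fits). The break beside EFHA1 was set on this contrast, so that call is no test of the break. The TNFRSF19 libraries lay far apart. At the other end PDS5B, a regulator of cohesin, had 1432, 1463 and 1403 normalized reads in control against 864, 730 and 713 in PELP1-KD. STARD13, a GTPase-activating protein 325 kb further on, had 315, 282 and 311 against 269, 267 and 251, and RFC3, a subunit of the clamp loader of DNA replication, had 1845, 1787 and 1749 against 1730, 1807 and 1652. PDS5B was at 53.7% of control, STARD13 at 86.7% and RFC3 at 96.5%.

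The promoters of the last gene of the middle stretch (PDS5B), of its lowered gene with most reads (HMGB1) and of its ParaHox genes that were not lowered (PDX1 and CDX2) are printed here as the 250 bases before the start of each gene in the deposited tables. They were read from the reference genome GRCh37, which has the coordinates of hg19, 5′ to 3′ on the strand of the gene, with CG dinucleotides in capitals. Their places are chr13:33160314-33160563 (plus strand) for PDS5B, chr13:31040082-31040331 (minus) for HMGB1, chr13:28493918-28494167 (plus) for PDX1 and chr13:28543318-28543567 (minus) for CDX2.
PDS5B: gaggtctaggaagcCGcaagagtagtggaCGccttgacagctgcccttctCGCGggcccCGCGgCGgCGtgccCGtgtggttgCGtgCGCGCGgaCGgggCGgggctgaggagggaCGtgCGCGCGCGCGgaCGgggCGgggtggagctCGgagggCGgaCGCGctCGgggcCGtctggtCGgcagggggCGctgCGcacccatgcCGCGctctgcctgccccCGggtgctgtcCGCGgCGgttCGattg
HMGB1: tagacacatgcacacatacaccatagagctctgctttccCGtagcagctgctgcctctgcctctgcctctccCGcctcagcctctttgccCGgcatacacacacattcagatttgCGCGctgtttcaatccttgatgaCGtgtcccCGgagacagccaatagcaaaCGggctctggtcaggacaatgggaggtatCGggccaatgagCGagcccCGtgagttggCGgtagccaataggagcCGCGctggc
PDX1: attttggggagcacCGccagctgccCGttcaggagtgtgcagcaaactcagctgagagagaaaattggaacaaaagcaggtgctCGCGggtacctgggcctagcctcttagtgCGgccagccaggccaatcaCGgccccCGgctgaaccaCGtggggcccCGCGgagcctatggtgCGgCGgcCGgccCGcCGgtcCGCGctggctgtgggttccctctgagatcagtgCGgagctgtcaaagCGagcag
CDX2: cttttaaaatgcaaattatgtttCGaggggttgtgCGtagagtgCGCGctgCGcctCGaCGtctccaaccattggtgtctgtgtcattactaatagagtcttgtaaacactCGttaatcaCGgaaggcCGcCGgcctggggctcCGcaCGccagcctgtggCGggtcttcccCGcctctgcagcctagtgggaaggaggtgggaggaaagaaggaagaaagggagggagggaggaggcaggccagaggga

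These promoters differed widely in CG content. HMGB1 had 14 CG dinucleotides and PDS5B 39, although both genes were lower in PELP1-KD, and PDX1 and CDX2 had 19 and 15. The median over the 40 tested genes of the middle stretch was 17.5, against 19 over all 14415 tested genes with a sequence. Sequence motifs were searched on both strands of the same 250 bases. The E-box CACGTG stood in 3 of the 40 promoters of the middle stretch (7.5%) and in 7.71% of the promoters of the 14415 tested genes with a sequence, and CCAAT stood in 12 (30%) against 33.0%. TATAAA stood in 2 (5%) against 5.94%, and GCGGGAA in 1 (2.5%) against 7.76%. Over all 22911 genes with a sequence, tested or not, the shares were 6.75%, 32.7%, 9.63% and 6.08% in the same order. Among the printed promoters, PDX1 held CACGTG and CCAAT, while CDX2 and HMGB1 held CCAAT. Of the 40 genes, SNORD102 and SNORA27 lie inside RPL21, so their 250 bases, both with CCAAT, are part of that gene. RPL21 and RPL21P28 have nearly the same 250 bases. Those of POLR1D and LNX2, both with CCAAT, overlap in part on opposite strands. A match is only a match of letters.

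Within each group the libraries were alike. Relative to the mean of the control libraries, the median log2 difference over the 40 tested middle genes was 0.00, 0.02 and −0.03 for the control libraries, and for the PELP1-KD libraries it was −0.80, −0.89 and −0.84. The proximal genes had −0.01, 0.01 and −0.10 in the PELP1-KD libraries, and the distal genes 0.00, −0.01 and −0.11. Each PELP1-KD library was thus lower over the middle stretch. The stretch was found from these same libraries, and control libraries were set against their own mean, so the values are a description. Without TMM, the summed reads on the 68 middle genes came to 2034, 2049 and 1980 CPM (reads scaled to library size) in control and to 1224, 1203 and 1181 CPM in PELP1-KD, or 59.5% of control, whereas the proximal and distal sums were at 98.2% and 98.1%. For the whole window the sum was 3045, 3068 and 2953 CPM in control and 2234, 2196 and 2125 CPM in PELP1-KD, which is 72.3% of control, and 73.4% without its 5 genes with most reads.

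**Figure D2:**
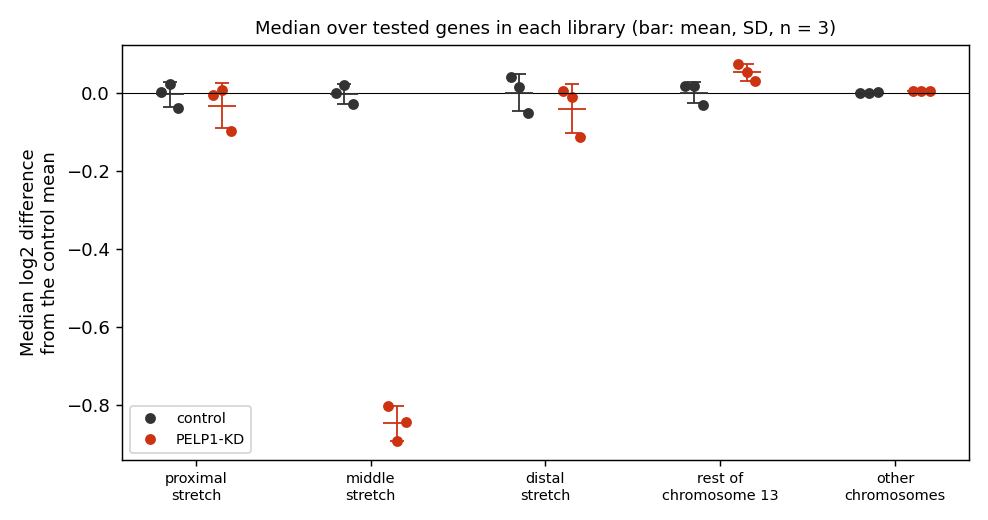
Median log2 difference from the control mean over the tested genes of each stretch, of the rest of chromosome 13 and of the other chromosomes, one point per library, with bars for the mean and SD (n = 3 per group). In the middle stretch the PELP1-KD libraries lay between −0.89 and −0.80 and the control libraries between −0.03 and 0.02, while elsewhere all medians lay between −0.11 and 0.08.

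Among middle genes with mean normalized reads of 100 or more, 31 of 33 were lower. RPL21 and RPL21P28 share a place and carry identical values, so the same signal enters the 33 genes and the 40 tested genes more than once. The levels of the 31 genes in PELP1-KD ran from 34.4% of control (SLC7A1) to 70.6% (WASF3) with a median of 53.7%. The log2FC of these 31 genes had an SD of 0.22, beside a median SE of 0.06 for a single gene, and 17 of the 31 lay within 2 SE of the median of the 33 genes. Thus the genes were close to one another but not all at 1 common level, and 7 of the 31 were lower by at least 2-fold. Of the 40 tested middle genes, 29 (72.5%) lay between 40% and 65% of control, a band that held 4.70% of all tested genes. The stretch was found from these values and the band lies around them, so the comparison is only a description. Across the 33 genes, which share the same 6 libraries, Spearman's rank correlation of the log2FC was 0.26 with the control level in RPKM, −0.37 with the exon length and −0.13 with position.

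**Figure D3:**
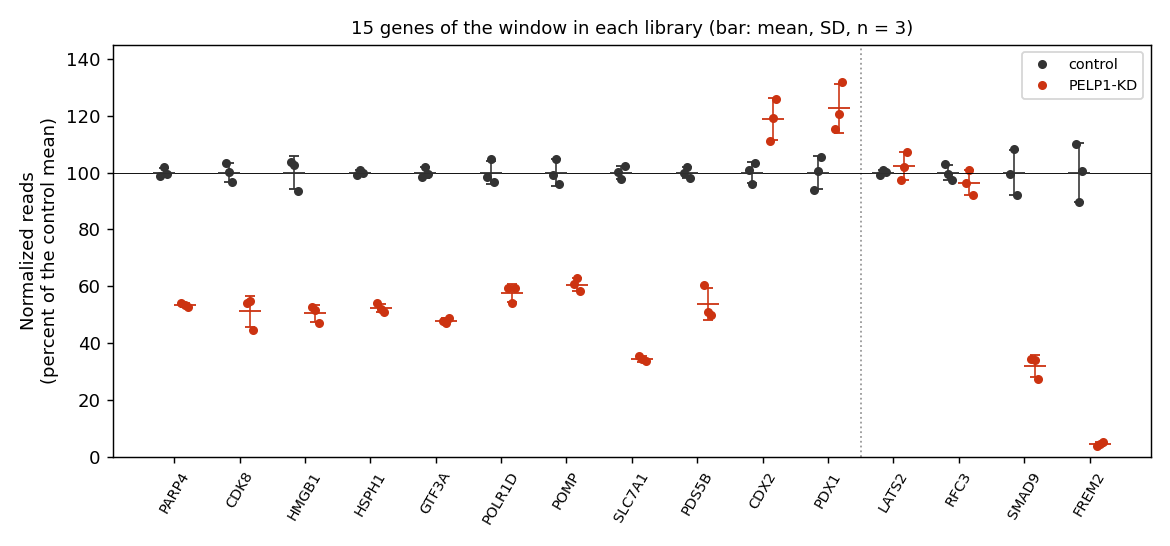
Normalized reads of 15 genes in each library, as percent of the gene's control mean, with bars for the mean and SD (n = 3). Left of the dotted line are genes of the middle stretch, of which 9 were at 34.4% to 60.6% of control while CDX2 and PDX1 were at 119% and 123%. Right of it are genes of the outer stretches, of which LATS2 and RFC3 were near control and SMAD9 and FREM2 were at 31.9% and 4.48%.

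The gene groups are given to say what the members do, and their counts are to be read beside the 80% of all tested middle genes and the 26.8% of all tested genes that were called lower. The cell cycle group had 5 tested genes in the middle stretch, all called lower, and 3 outside it, none called. HMGB1, an abundant chromatin protein that bends DNA and acts as an alarm signal outside cells, had 11758, 11627 and 10574 normalized reads in control against 5967, 5825 and 5341 in PELP1-KD. It was the window's gene with most reads, and it was at 50.4% of control (log2FC −0.99, SE 0.05). CDK8, the kinase of the Mediator module that joins transcription factors to RNA polymerase II, had 564, 547 and 528 against 295, 299 and 244, or 51.1%. CENPJ, which builds centrioles, was at 46.5% and PDS5B at 53.7%. KATNAL1, a microtubule-severing ATPase, had 410, 413 and 358 against 191, 180 and 114, so that its PELP1-KD replicate 3 was the lowest, and its log2FC of −1.29 had an SE of 0.13. Outside the middle stretch, LATS2, a Hippo pathway kinase, had 2295, 2338 and 2320 against 2255, 2366 and 2484, which overlap, and RFC3 and SKA3, a kinetochore protein at 94.8% of control, also overlapped between groups.

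In the group of RNA polymerase, RNA processing and translation, 6 of 7 tested middle genes were called lower, beside 80% of all tested middle genes, and none higher, and of 5 tested genes outside the middle stretch none was called lower and 1 higher. GTF3A, the transcription factor of 5S ribosomal RNA genes, had 2852, 2961 and 2886 normalized reads in control against 1386, 1361 and 1412 in PELP1-KD, or 47.8%. POLR1D, a subunit shared by RNA polymerases I and III, had 1718, 1826 and 1686 against 1033, 943 and 1038, or 57.6%. Both had groups far apart. NUPL1, a protein of the nuclear pore channel, was at 48.6% of control, MTIF3, a mitochondrial translation initiation factor, at 57.4%, and PAN3, a subunit of a poly(A) nuclease, at 58.6%. RPL21, a protein of the large ribosomal subunit, had 4719, 4806 and 4839 against 2642, 2581 and 2668, or 54.9%. Its value is uncertain, because RPL21P28 occupies the same place and both carry identical values, and because ribosomal protein genes have many near-identical copies among which reads were shared. PABPC3, a poly(A)-binding protein gene with at most 13.3 normalized reads in any library, was the 1 tested middle gene of the group that was not called. GTF3A and MTIF3 overlap by exon bases on opposite strands. Outside the middle stretch SAP18, a splicing and corepressor protein, had 4000, 4033 and 3939 against 4132, 4009 and 4107, and EXOSC8, an RNA exosome subunit, was at 98.6% of control. FAM48A, a subunit of the SAGA acetyltransferase complex that is also named SUPT20H, was the gene called higher, at 110% of control, and it shares exon bases with EXOSC8 on the opposite strand.

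All 8 tested middle genes of the ubiquitin, proteasome and chaperone group were called lower, beside 32 of the 40 tested middle genes of any function. HSPH1, a large Hsp70-type chaperone, had 5291, 5387 and 5332 normalized reads in control against 2880, 2767 and 2725 in PELP1-KD, or 52.3%. POMP, which helps the proteasome core to assemble, had 3285, 3471 and 3170 against 2006, 2082 and 1924, or 60.6%. Both were lower in every PELP1-KD library. USP12, a deubiquitinase, was at 64.8%, RNF6, a ubiquitin ligase, at 57.4%, MIPEP, a peptidase of mitochondrial import, at 55.6%, USPL1, a SUMO protease, at 54.1% and UBL3, a ubiquitin-like membrane protein, at 50.2%. UFM1, a ubiquitin-like modifier in the distal stretch, was the 1 tested gene of this group outside the middle. It had 1639, 1585 and 1288 normalized reads in control and 1601, 1524 and 1320 in PELP1-KD, which overlap.

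Of the 3 tested middle genes of metabolism and solute carriers, 2 were called lower. SLC7A1, the main carrier of arginine and lysine into most cells, had 1752, 1707 and 1790 normalized reads in control against 619, 600 and 587 in PELP1-KD. It had the lowest level of the middle stretch, 34.4% of control (log2FC −1.54, SE 0.05). PARP4, the ADP-ribosyltransferase of vault particles, was at 53.5%, while SLC46A3, a lysosomal carrier, had at most 59.5 normalized reads in any library, overlapped between groups at 110% of control and was not called. All 4 tested middle genes of glycosylation and traffic were called lower, among them B3GALTL, a glucosyltransferase of O-fucose sugars (53.0%), and MTMR6, a phosphoinositide phosphatase (54.7%). Both tested middle genes of the signaling group were called lower. These were TNFRSF19 at 53.2% and WASF3, an actin regulator, at 70.6%. FLT1, the receptor of vascular endothelial growth factor A, had at most 2 reads in any library and could not be described. FRY, a scaffold of the cytoskeleton, was at 43.6%.

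A few genes of the middle stretch were not lower, and the best measured of them lay side by side. CDX2 and PDX1, the ParaHox transcription factors that are best known from intestine and pancreas, were the 2 genes of the 33 that were not lower. CDX2 had 4793, 4562 and 4918 normalized reads in control and 5294, 5672 and 5995 in PELP1-KD, or 119% (log2FC 0.25, SE 0.04). PDX1 had 226, 242 and 253 against 276, 289 and 317, or 123% (log2FC 0.30, SE 0.09). In both genes the groups did not overlap. PRHOXNB, which lies beside CDX2 and encodes an enzyme of uric acid breakdown, is named because its values were seen. It had 39, 39 and 32 normalized reads in control against 64, 91 and 96 in PELP1-KD (log2FC 1.18, SE 0.20). The ParaHox gene GSX1 had 0 reads in every library. These genes lie between POLR1D, at 57.6% of control, and PAN3, at 58.6%, so that genes on either side of them were lower.

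Other middle genes that were tested but not called had few reads. They were PABPC3 and SLC46A3 above and, chosen after their values were seen, the small nucleolar RNA genes SNORD102 and SNORA27 and the gene PCOTH, with at most 35.3 normalized reads in any library. Untested genes were frequent in the middle stretch too, where 28 of 68 genes were untested, 16 of them with 0 reads in every library. In the distal stretch 16 genes were untested and in the proximal stretch 6.

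A few genes of the outer stretches were also low in PELP1-KD. FREM2, an extracellular matrix protein, had 207, 169 and 190 normalized reads in control and 7, 8 and 10 in PELP1-KD, or 4.48% of control (log2FC −4.46, SE 0.20). SPG20, which encodes spartin, a protein of endosomes and lipid droplets, had 347, 342 and 323 against 81, 84 and 102, or 26.4%. SMAD9, a signal transducer of bone morphogenetic proteins, had 291, 315 and 269 against 100, 99 and 80, or 31.9%. These 3 distal genes lay far below their neighbours, since RFXAP, a regulator of MHC class II genes, and ALG5, a glucosyltransferase of the endoplasmic reticulum, beside SMAD9 were at 87.7% and 92.5% and PROSER1 beside FREM2 was at 115%. In the proximal stretch CRYL1, a lambda-crystallin-like dehydrogenase, had 292, 288 and 299 against 167, 142 and 181, or 55.8%, and N6AMT2, a methyltransferase, was at 69.6%. PSPC1, a paraspeckle protein, was called lower at 84.1%. LOC650794, named because its values were seen, was the 1 proximal gene called higher, with 18.1 to 27.5 normalized reads in control and 28.0 to 43.9 in PELP1-KD.

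At the edges of the window, MPHOSPH8, a reader of methylated histone H3, and PSPC1 were the first tested genes inside the start, at 100.3% and 84.1% of control, and no tested gene of chromosome 13 lay before them. NHLRC3 and COG6, a Golgi tether subunit, were the last tested genes inside the end, at 106% and 109%. Just outside the end, FOXO1, a transcription factor of insulin signaling, had 58.9% of its control level and MRPS31, a mitochondrial ribosomal protein, 118%.

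Per length of transcript, the abundant genes of the window changed their order between groups. In control RPL21 had 268 RPKM (SD 3.14, n = 3), HMGB1 105 (SD 6.19), CDX2 72.0 (SD 2.62), POMP 71.6 (SD 3.41) and GTF3A 65.3 (SD 1.30), of which CDX2 and POMP did not differ beyond their spread. Then came SAP18 with 54.9 RPKM (SD 0.763), HSPH1 with 46.0 (SD 0.440) and PSPC1 with 44.0 (SD 0.973). In PELP1-KD, RPL21 had 149 RPKM, CDX2 86.5, SAP18 56.8, HMGB1 53.4, POMP 43.9, PSPC1 37.4, GTF3A 31.6 and HSPH1 24.4. CDX2 thus stood above HMGB1, whereas in control it had stood below.

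The rest of chromosome 13 was near control as a whole but not along its length. Its 166 tested genes had a median log2FC of 0.06 (quartiles −0.25 and 0.22), and 56 of them (33.7%) were called lower and 47 higher. The median of the window less this median was −0.60 on the log2 scale. With the division made after the values were seen, the 101 tested genes in the first 40 Mb after the window had a median of 0.15. Of these, 13 (12.9%) were called lower and 41 higher. The 65 tested genes beyond them had a median of −0.25, with 43 (66.2%) called lower and 6 higher. Of all tested genes, 26.8% were called lower and 26.8% higher. The farther genes were thus also lower in PELP1-KD, by less than the middle stretch of the window. Runs of 15 neighbouring tested genes were compared over all chromosomes as a description. The lowest run of chromosome 13, from SLC7A1 to SPG20, had a median log2FC of −0.95, and 37 of 14094 runs were lower still, of which 9 lay on chromosome 11, 11 on chromosome 15 and 17 on the X chromosome.

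Many products of the window work in complexes with proteins encoded elsewhere, and 75 such partners and paralogs of 19 genes of the window were listed. None lies on chromosome 13, and the choice of the window did not use them. Of the 74 that could be tested 17 (23.0%) were called lower and 15 (20.3%) higher, beside 26.8% each of all tested genes, and their median log2FC was −0.02. The 34 tested partners of 10 middle genes had a median of −0.02, with 8 called lower and 10 higher, and 1 of them had a log2FC below −0.5. The 40 tested partners of 9 genes of the outer stretches also had a median of −0.02, with 9 called lower and 5 higher. Partners of the lower middle genes therefore lay around control, as those of the outer genes did.

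**Figure D4:**
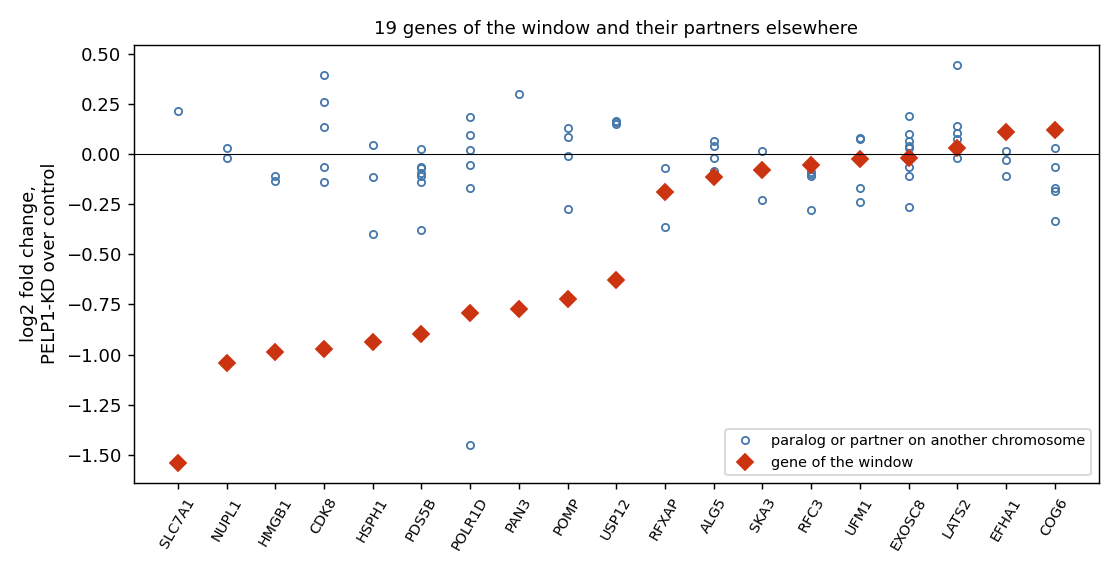
Log2 fold change (PELP1-KD over control) of 19 genes of the window (diamonds) and of their tested paralogs and complex partners on other chromosomes (open circles), one column per gene of the window. The 10 genes at the left lie in the middle stretch and were lower, while their 34 tested partners had a median of −0.02 and only ZNRD1, with few reads, lay below −0.5.

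Among the partners of CDK8, its paralog CDK19 had 841 ± 12.3 normalized reads in control (SD, n = 3) and 1008 ± 61.9 in PELP1-KD, and it rose (log2FC 0.26, adjusted p = 0.000717 by edgeR with Benjamini-Hochberg adjustment, as for the partners that follow). MED12, the Mediator subunit that activates CDK8, rose as well (log2FC 0.39, adjusted p = 8.47e-07). CCNC, the cyclin of CDK8, had a log2FC of −0.14 with an adjusted p of 0.114, which became 0.000474 with the block, 0.0291 without control replicate 3 and 0.0361 without PELP1-KD replicate 1. PDS5A, the paralog of PDS5B, had 6822 ± 160 normalized reads in control and 6516 ± 465 in PELP1-KD (log2FC −0.07, adjusted p = 0.216, which became 0.0268 with the block and 0.0203 without PELP1-KD replicate 1). RAD21, the cleavable subunit of cohesin, fell (log2FC −0.38, adjusted p = 2.66e-07). It was the lowest of the 7 tested partners of PDS5B, which had a median log2FC of −0.09 and ran up to 0.03 (SMC1A). The paralogs of the lower genes CDK8 and PDS5B were thus not lower by a similar amount.

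HMGB2 and HMGB3, the paralogs of HMGB1, were lower by small amounts (log2FC −0.11, adjusted p = 0.00894, and log2FC −0.13, adjusted p = 0.0251). Neither call held for each library left out, with an adjusted p of 0.0640 for HMGB2 without control replicate 2 and 0.0674 without PELP1-KD replicate 2, and of 0.122, 0.0554 and 0.0689 for HMGB3 without control replicate 1, control replicate 2 and PELP1-KD replicate 1 in edgeR. HSPA4, a paralog of HSPH1, had 9809 ± 270 normalized reads in control and 10119 ± 225 in PELP1-KD (log2FC 0.04, adjusted p = 0.281), and HSPA4L, another, fell (log2FC −0.40, adjusted p = 0.000582). SLC7A2, the arginine carrier related to SLC7A1, rose from 10336 ± 354 to 12006 ± 783 normalized reads (log2FC 0.22, adjusted p = 0.000216). PAN2, the nuclease that PAN3 holds, rose (log2FC 0.30, adjusted p = 0.000112). USP46, the paralog of USP12, and WDR48, which activates both, also rose (log2FC 0.15, adjusted p = 0.00775, and log2FC 0.16, adjusted p = 0.00497). The nuclear pore partners of NUPL1 did not pass the test, with NUP54 at a log2FC of −0.02 (adjusted p = 0.735) and NUP62 at 0.03 (adjusted p = 0.497). ZNRD1, a subunit of RNA polymerase I, had the lowest value of the list (log2FC −1.45, SE 0.41, adjusted p = 0.00626, and log2FC −0.89 with an adjusted p of 0.0769 without control replicate 2), and it is uncertain, since it had a mean of 33.1 reads in control and its exons also lie on alternative haplotypes of chromosome 6. The 6 tested partners of POLR1D had a median log2FC of −0.02. Apart from ZNRD1 they ran from −0.17 (POLR1C) to 0.19 (POLR1E).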

How the data were processed

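The data were 6 RNA-seq libraries of Hep3B cells, 3 control and 3 PELP1-KD, grouped by their treatment labels. The authors deposited estimated counts per gene, 1 table per library, without normalization. Each table's header gives featureCounts 1.5.0-p1 on exons summed per gene in hg19, strand-specific, at a mapping quality of 2 or more and with reads of several places or genes shared out as fractions. The submitters' processing notes name HISAT2, SAMtools and featureCounts, whereas the paper's methods name TopHat2 and HTSeq, and the sources also differ on the RNA kit (TRIzol or RNeasy), so the header was followed. Between 10.6% and 13.3% of a library's values were not whole, and all were rounded. Depth was 26758180 to 34456393 reads on genes.

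Log2 fold changes come from edgeR 4.0.16 in R 4.3.3 (TMM, filterByExpr, glmQLFit with robust estimation, glmQLFTest), fitted to all 14537 tested genes of the 6 libraries, with Benjamini-Hochberg adjustment and a threshold of 0.05. The SE was obtained from the log2 fold change and the F statistic of the test, as the size of the first divided by the root of the second. The fit was tested on simulated data. Normalized reads are scaled by the TMM library size, percent of control is the ratio of group means, and per-library log2 differences use an added 0.5 reads. Stretches were found by the 2 breaks that gave the smallest sum of absolute deviations from the medians of the stretches.

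The members, gene groups, partners and tests were chosen with earlier results of these data known. By rule the text names the 12 tested members with most reads, the 5 lowest and 5 highest log2 fold changes among members with at least 100 normalized reads, the genes at the edges, and genes of the groups and partner lists. Likeness of single genes to the window's profile is not given, since the 6 libraries form 2 separate groups. Members' adjusted p values only count calls and are not printed. Same-numbered libraries deviated together over 6370 genes (Pearson's r of 0.34, 0.25 and 0.67 for numbers 1, 2 and 3), so the numbers were taken to pair the libraries, and a fit with the number as a block was run. Control replicate 2 was nevertheless closer to PELP1-KD replicate 1 (r = 0.42). For PELP1-KD replicate 2, r was 0.24 with control replicate 1 and 0.25 with control replicate 2. Calls made with the block rest on this assumed pairing. Alternatives were DESeq2 1.42.0, other normalizations, filters, windows and member sets, unrounded counts and each library left out. Promoter sequences were read from GRCh37. Some genes of the window are not reported here by name. Figures were drawn with matplotlib 3.10.9.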

Additional observations from a re-analysis of the deposited data

How the results depend on the processing

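The median log2 fold change of the tested members (−0.54) kept its sign under every alternative, and the median of the middle stretch stayed between −0.87 and −0.84 when each library was left out, with 32 to 33 of its genes called lower. The window and the stretch were both found from this contrast in the same libraries, so these values are a description and no test. The results on the middle stretch and their alternatives were added after the data were seen. The window's median moved by more than the spread between libraries to −0.60 with at least 10 reads in every library, −0.68 with the window narrowed by 1 Mb at each end, −0.72 with members of at least 100 reads and −0.19 without members changed at least 2-fold. It lay between −0.56 and −0.50 when each library was left out. Without control replicate 1 it was −0.50, which was also a move beyond that spread. The window's median less that of the rest of chromosome 13 (−0.60) became −0.51 with no filter on low counts, −0.67 with at least 10 reads, −0.73 in the narrowed window, −0.79 with members of at least 100 reads and −0.25 without members changed at least 2-fold, and lay between −0.64 and −0.55 when each library was left out. The median of the rest of chromosome 13 (0.06) turned to −0.023 with no filter and lay between 0.021 and 0.092 when each library was left out. The cause of these moves was not tested. Under other filters, windows or member sets, fewer or other genes entered each median. In the fits with a library left out, the libraries themselves also differed.

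With the replicate block, the window's median was −0.54, 40 members were called lower and 8 higher, and 47 partners were called in place of 32. Calls rose over the whole table too, to 4415 lower and 4413 higher from 3889 and 3899 of 14537 tested genes. The rise among partners is therefore to be read beside that general rise. The block lost no call among the named genes, and it added calls for PELP1, for the members EFHA1 (log2 fold change 0.11) and ZDHHC20 (−0.09) and for 15 partners. Between 25 and 36 partners were called when each library was left out. Counts of members called lower lay between 38 and 40 and of those called higher between 4 and 7 when each library was left out. In the same fits, 3387 to 3989 genes of the whole table were called lower and 3379 to 3949 higher. For the 31 named members the largest shift of a log2 fold change under 14 alternatives was 0.21, in KATNAL1. Genes with few reads could not be described at this depth.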
